A study of Mus musculus with 24 samples.

Results

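A set of 10 genes that limit G protein and cyclic AMP signalling was followed in peritoneal cells, hearts and lungs of mice with peritonitis that had received β-nicotinamide mononucleotide (β-NMN, a precursor of NAD+) or vehicle. They are 7 regulators of G protein signalling (Rgs1, Rgs2, Rgs3, Rgs5, Rgs7, Rgs14 and Rgs16) and 3 phosphodiesterases of the PDE4 family (Pde4a, Pde4b and Pde4d), taken by symbol from the 54658 symbols of each count table. The set was chosen by the low levels of Pde4b and Rgs7 in β-NMN hearts against vehicle hearts, and heart differences are therefore described here without a test. The rule used no value of peritoneal cells or lungs, although the members were named with earlier results of all 3 tissues known.

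All mice were male C57BL/6 mice of 7 to 12 weeks that received saline or β-NMN at 185 mg/kg/day. In the first experiment, peritonitis was caused by cecal ligation and puncture (CLP), and heart and lung were collected 24 h later from 3 vehicle and 3 β-NMN mice. In the second, thioglycolate (TGC) drew cells into the peritoneal cavity of 6 vehicle and 6 β-NMN mice, and the cells washed out on day 3 were exposed to Escherichia coli for 6 h in culture. All libraries come from an inflamed state, since sham-operated mice and unstimulated cells were not analysed here. The source labels of the CLP organs name thioglycolate, but their titles and tissues give CLP, which was used. Both β-NMN hearts from the mice with lungs 2 and 3 carry the number 3, and each was given the number of its lung. RNA was measured as reads counted per gene, with totals per library of 31.13 M to 112.5 M counts in peritoneal cells, 27.32 M to 68.52 M in hearts and 8.915 M to 28.36 M in lungs. Levels are given as CPM, the counts of a gene for each 1000000 counts of the library, scaled within each tissue (M stands for 1000000). Marker genes of the labelled tissues were present, with cardiomyocyte markers summing to 29578 to 55331 CPM in hearts, alveolar and airway markers to 54339 to 97830 CPM in lungs and macrophage markers to 2910 to 7361 CPM in peritoneal cells. Heart and lung libraries of vehicle replicate 2 stood apart from the others of their group, with an SD of log2 differences over genes of 0.898 against 0.443 to 0.606 in hearts and 1.62 against 0.473 to 0.923 in lungs, and members whose difference moved by over 1.5 times without this mouse are given with and without it.

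Receptors that couple to a stimulatory G protein (Gs) switch on adenylyl cyclase, which makes cyclic AMP (cAMP), and cAMP acts through protein kinase A and the exchange factors Epac. PDE4 enzymes end the signal by cutting cAMP, and the transcription factor CREB, a target of protein kinase A, induces genes such as the Nr4a receptors. RGS proteins act one step earlier: they speed the hydrolysis of GTP on the alpha subunit of a G protein and so shorten the signal of its receptor. In macrophages cAMP restrains inflammatory cytokine production, and Pde4b is known as the PDE4 gene that bacterial endotoxin induces in these cells.

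The promoters of the members were searched for the letters that CREB is known to bind, the cAMP response element. A window of 300 bases (250 before and 50 after an annotated start, RefSeq, GRCm38.p6) was on hand for 14 starts of 8 members, and none for Rgs1 and Rgs14. The letters TGACGT, or ACGTCA on the other strand, stood in 3 of the 14 windows and in 7.51% of all 32851 windows. The whole palindrome TGACGTCA, which contains both, stood in 0 of the 14 and in 1.79% of all. The 3 windows with a match are printed first and then those of Pde4d and Rgs16, the 2 members with the largest falls in peritoneal cells, which held none. Capitals mark the match, and each window reads 5′ to 3′ on the strand of the gene.

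Pde4b, chr4:102421305-102421604, plus strand: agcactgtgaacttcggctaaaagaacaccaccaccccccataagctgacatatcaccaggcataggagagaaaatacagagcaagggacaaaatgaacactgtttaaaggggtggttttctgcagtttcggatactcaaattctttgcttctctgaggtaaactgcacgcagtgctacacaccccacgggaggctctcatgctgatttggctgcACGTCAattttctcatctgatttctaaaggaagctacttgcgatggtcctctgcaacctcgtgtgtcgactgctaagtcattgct
Rgs2, chr1:144004100-144004399, minus strand: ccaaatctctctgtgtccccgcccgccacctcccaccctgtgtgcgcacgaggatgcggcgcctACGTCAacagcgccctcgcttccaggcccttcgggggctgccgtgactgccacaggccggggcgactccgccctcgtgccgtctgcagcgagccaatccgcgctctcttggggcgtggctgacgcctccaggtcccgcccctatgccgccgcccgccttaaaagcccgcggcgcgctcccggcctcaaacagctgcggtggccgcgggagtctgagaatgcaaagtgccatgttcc
Pde4a, chr9:21183851-21184150, plus strand: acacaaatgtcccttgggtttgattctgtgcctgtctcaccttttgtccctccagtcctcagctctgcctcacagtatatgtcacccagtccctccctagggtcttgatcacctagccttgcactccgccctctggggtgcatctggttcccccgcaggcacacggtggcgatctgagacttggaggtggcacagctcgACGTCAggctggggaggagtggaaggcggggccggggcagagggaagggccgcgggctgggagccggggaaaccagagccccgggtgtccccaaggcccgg
Pde4d, chr13:108653927-108654226, plus strand: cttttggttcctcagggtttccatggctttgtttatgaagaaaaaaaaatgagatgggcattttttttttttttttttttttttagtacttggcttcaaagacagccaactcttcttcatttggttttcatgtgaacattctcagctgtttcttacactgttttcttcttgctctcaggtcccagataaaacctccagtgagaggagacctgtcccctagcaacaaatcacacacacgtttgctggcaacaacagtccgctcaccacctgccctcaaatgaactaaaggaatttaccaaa
Rgs16, chr1:153740103-153740402, plus strand: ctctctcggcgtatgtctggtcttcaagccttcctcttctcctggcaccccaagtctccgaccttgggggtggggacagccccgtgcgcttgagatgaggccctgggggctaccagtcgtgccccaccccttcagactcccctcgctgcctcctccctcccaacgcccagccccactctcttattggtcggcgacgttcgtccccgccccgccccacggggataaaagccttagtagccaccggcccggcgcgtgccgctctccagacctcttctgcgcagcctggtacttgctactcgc

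The match began 35 bases before the start in Pde4b, 186 in Rgs2 and 51 in Pde4a. The Pde4b window is 1 of 4 on hand for that gene, and the Pde4a window 1 of 3, and the other windows of both genes held no match. A match describes letters and not binding, and starts without a window were not searched.

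In bacteria-stimulated peritoneal cells from β-NMN mice, a pair of PDE4 genes lay far below vehicle: Pde4b fell 3.86-fold and Pde4d 8.56-fold. Among RGS genes, Rgs16 fell 5.03-fold, Rgs2 fell 2.59-fold and Rgs3 fell less, whereas Rgs1 and Rgs14 were not called. In bulk RNA of this kind, fewer cells of a type and less RNA per cell cannot be told apart. Of the 10 members 8 passed the low-count filter, and 5 of these were lower and 0 higher at an adjusted p below 0.05. Across all 14985 genes tested, 51.6% were called (27.9% lower and 23.7% higher), so a call by itself was common in this tissue. The median log2 fold change was −0.96 over the 8 members and −0.02 over all genes. In 4 members every β-NMN library lay below every vehicle library, which held for 14% of all genes, and 12.6% of genes lay wholly above.

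Pde4b (chromosome 4, 102087543 to 102607259, plus strand, GRCm38) encodes the cAMP phosphodiesterase that endotoxin induces in monocytes and macrophages. It had 542 CPM in the lowest vehicle library, a median of 612 and 725 in the highest, against 124, 140 and 251 in the β-NMN libraries. The groups did not overlap, and replicate 6 of the β-NMN group was the closest to vehicle, with the next one at 164 CPM. The log2 fold change was −1.95 (SE 0.16, adjusted p = 2.63e-07), and the exact permutation test (two-sided, 6 against 6 mice) gave its lowest possible p, 0.00216. Pde4d (chromosome 13, 108449948 to 109953461, plus strand), best known for shaping cAMP signals in heart muscle, was a minor PDE4 gene here. Its vehicle libraries had 11.1 to 20.6 CPM (median 15.2) and its β-NMN libraries 1.23 to 2.13 CPM (median 1.93). The lowest vehicle value was thus above the highest β-NMN value by a wide margin, and the log2 fold change was −3.10 (SE 0.17, adjusted p = 8.12e-09), again with an exact permutation p of 0.00216. Pde4a (chromosome 9, 21165714 to 21213248, plus strand), a broadly expressed member, had 1.27 to 2.47 CPM in vehicle cells and 1.49 to 2.37 CPM in β-NMN cells. These ranges overlapped almost completely (log2 fold change 0.11, SE 0.20, adjusted p = 0.675).

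**Figure D1:**
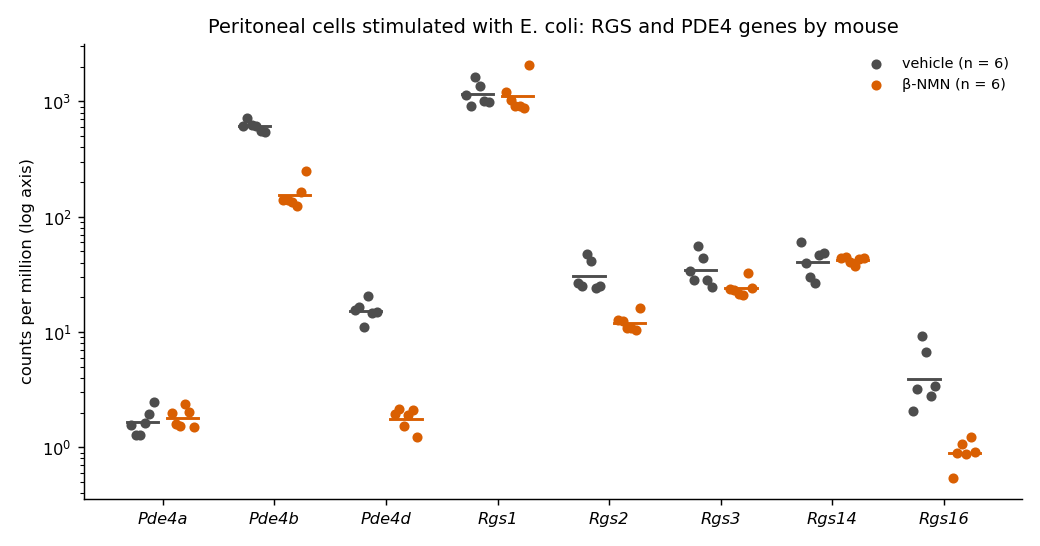
CPM of the 8 tested members in each peritoneal library on a log axis, with vehicle in grey and β-NMN in orange (n = 6 mice each); lines are means of the log values. Pde4b, Pde4d, Rgs2 and Rgs16 show no overlap between the groups, with Pde4d at 11.1 to 20.6 CPM in vehicle and 1.23 to 2.13 CPM in β-NMN cells.

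Rgs16 (chromosome 1, 153740349 to 153745468, plus strand) encodes a small RGS protein that is induced in activated immune cells. Vehicle libraries had 2.05 to 9.23 CPM with a median of 3.28, and β-NMN libraries had 0.538 to 1.22 CPM with a median of 0.903. Vehicle replicates 3 and 4 were the highest, at 9.23 and 6.66 CPM, but the lowest vehicle library was still above all 6 β-NMN libraries. The log2 fold change was −2.33 (SE 0.35, adjusted p = 6.77e-05, exact permutation p = 0.00216). Rgs2 (chromosome 1, 143999338 to 144004161, minus strand), which acts mainly on the alpha subunit Gq, had 24.0 to 47.5 CPM in vehicle cells (median 25.9) and 10.4 to 16.1 CPM in β-NMN cells (median 11.6). The same vehicle replicates 3 and 4 were again highest, at 47.5 and 41.5 CPM, and the groups did not overlap. Its log2 fold change was −1.37 (SE 0.18, adjusted p = 2.47e-05, exact permutation p = 0.00216).

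Rgs3 (chromosome 4, 62559847 to 62704001, plus strand), which acts on both Gi and Gq, had 24.5 to 55.3 CPM in vehicle cells (median 31.0) and 21.1 to 32.7 CPM in β-NMN cells (median 23.3). Here the groups overlapped, through vehicle replicate 6 at 24.5 CPM and β-NMN replicate 5 at 32.7 CPM. The log2 fold change of −0.55 (SE 0.18) passed with an adjusted p of 0.0204 and an exact permutation p of 0.0281. The call was lost without vehicle replicate 3 (−0.34) or 4 (−0.45) or β-NMN replicate 3 or 4 (both −0.47), with an adjusted p of up to 0.0679 in these fits. It was also lost within the 5 libraries above 70000000 counts (−0.40, adjusted p = 0.233) and within the 7 below (−0.62, adjusted p = 0.0735). Pde4b, Pde4d, Rgs2 and Rgs16 were called in each of these fits, with log2 fold changes of −1.96 and −1.94 for Pde4b, −2.96 and −3.06 for Pde4d, −1.20 and −1.43 for Rgs2, and −2.50 and −2.22 for Rgs16 in the deeper and shallower libraries.

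Rgs1 (chromosome 1, 144242296 to 144249242, minus strand), which limits Gi signals of chemokine receptors in leukocytes, was the most abundant member in these cells, per kilobase as well. It had 905 to 1645 CPM in vehicle libraries (median 1079) and 884 to 2085 CPM in β-NMN libraries (median 976). The highest value of both groups was β-NMN replicate 6, and the groups covered each other (log2 fold change −0.01, SE 0.21, adjusted p = 0.982). Rgs14 (chromosome 13, 55369732 to 55384687, plus strand), a Gi regulator with a second site that binds the inactive alpha subunit, had 26.8 to 59.9 CPM in vehicle cells and 37.5 to 44.4 CPM in β-NMN cells. Vehicle replicates 3 and 4, which were highest for Rgs2, Rgs3 and Rgs16, were the lowest for Rgs14, at 29.8 and 26.8 CPM. The log2 fold change of Rgs14 was 0.01 (SE 0.16, adjusted p = 0.966), and the signs of Rgs1, Rgs14 and Pde4a turned in some of the other fits. Rgs5 (chromosome 1, 169655501 to 169695813, plus strand) and Rgs7 (chromosome 1, 175059087 to 175492500, minus strand) did not pass the filter, with 0 to 10 counts in each library for either gene.

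Other measures moved with the treatment in the same libraries. All 5 neutrophil markers were called lower in β-NMN cells, with a summed level of 473 to 979 CPM in vehicle and 297 to 452 CPM in β-NMN libraries. S100a8, a neutrophil alarmin, had 50.8 to 146 CPM against 1.89 to 5.64 CPM, and Ly6g, which defines mouse neutrophils, was at or below 1.57 CPM in every library. Of the 5 macrophage markers, which summed to 2910 to 7361 CPM in vehicle and 3047 to 3724 CPM in β-NMN libraries, Cd68 and Mrc1 were called higher and Cd14 lower. Of the 7 pericyte and smooth muscle markers 3 were called lower, and all 7 summed to 9.59 to 30.2 against 4.09 to 6.26 CPM. Most of the vehicle sum was Pdgfrb (6.07 to 21.9 CPM) and Acta2 (2.04 to 12.6 CPM), and 5 of the 7 were below 1 CPM in every library. T cell markers (3 of 5 lower and 1 higher), B cell markers (2 of 4 lower) and endothelial markers (2 lower and 1 higher of 4 tested) moved too, with sums that overlapped between the groups. Vehicle replicates 3 and 4, with the highest levels of Rgs2, Rgs3 and Rgs16, had the lowest neutrophil sums (473 and 578 CPM) and the highest pericyte and smooth muscle sums (29.0 and 30.2 CPM, against 9.59 to 19.1 CPM in the other 4), and replicate 3 had the highest macrophage sum. The neutrophil sum was mostly Csf3r, at 383 to 689 CPM in vehicle and 294 to 447 CPM in β-NMN libraries. Cd14 had 1127 to 5097 CPM in vehicle and 309 to 450 CPM in β-NMN libraries, with no other macrophage marker above 1262 CPM in vehicle. Neither sum is a count of cells. The part of these cells in the levels of the members was not tested.

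In hearts, the values that chose the group were those of Pde4b and Rgs7. Pde4b had 55.6, 207 and 52.3 CPM in vehicle replicates 1 to 3 and 22.0, 24.9 and 24.8 CPM in the β-NMN hearts. All vehicle hearts were above all β-NMN hearts, and vehicle replicate 2 was far above the rest. The log2 fold change was −2.13 (SE 0.55) with this heart and −1.18 without it. Rgs7, a regulator known mostly from neurons, had 4.13, 5.10 and 4.07 CPM in vehicle hearts and 1.68, 1.79 and 1.92 CPM in β-NMN hearts. The replicates of each group were close to each other, and the log2 fold change of −1.30 (SE 0.20) lay between −1.35 and −1.19 without any single heart. The deposited table held 45 to 271 Rgs7 reads in each heart, and the gene shares its strand with the overlapping 5730408A14Rik.

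The remaining members are described in the same way. Rgs16 had 1.46, 4.38 and 1.78 CPM in vehicle hearts and 1.45, 1.03 and 0.744 CPM in β-NMN hearts (log2 fold change −1.25, SE 0.49), or −0.61 without vehicle replicate 2. Here the groups were separated only by the small gap between 1.46 and 1.45 CPM. Pde4d had 25.7, 26.6 and 30.6 CPM in vehicle hearts and 21.5, 22.4 and 21.2 CPM in β-NMN hearts (−0.35, SE 0.12), so that the groups lay apart by little. Pde4a went the other way, with 55.1, 28.0 and 54.5 CPM against 64.6, 80.0 and 65.4 CPM (0.61, SE 0.27), or 0.35 without vehicle replicate 2. Rgs5, the member that marks pericytes, was the most abundant per kilobase in every heart, with 459, 158 and 551 CPM in vehicle and 540, 627 and 555 CPM in β-NMN hearts (0.56, SE 0.42). Vehicle replicate 2 was the low one, and without it the difference of Rgs5 was 0.18. Rgs2, Rgs3 and Rgs14 overlapped between the groups, with log2 fold changes of −0.07, 0.15 and −0.08 (Rgs14 was at 0.041 without vehicle replicate 2). Rgs1 did not pass the filter, with 5 to 25 counts in each heart.

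Of the 9 members above the filter, 4 (Pde4b, Pde4d, Rgs7 and Rgs16) lay wholly below and 1 (Pde4a) wholly above the vehicle hearts. The shares were 11.5% and 11.6% of the 16245 genes tested, but Pde4b and Rgs7 were chosen for this, so nothing is read from the count. None of those genes was called in hearts (0%) by edgeR's quasi-likelihood test, with 1837 genes at an unadjusted p below 0.05, while DESeq2 called 38 higher and 224 lower. The paper, which also names this edgeR test, reports genes at an adjusted p below 0.05 in both hearts and lungs. The reason for this difference was not tested. Vehicle replicate 2, which had the highest Pde4b and Rgs16 and the lowest Rgs5 and Pde4a, had 29578 CPM of summed cardiomyocyte markers against 47766 and 47991 CPM in the other vehicle hearts. The β-NMN hearts had 50534 to 55331 CPM, above all vehicle hearts, and 2 of the 5 cardiomyocyte markers lay wholly higher. Neutrophil markers summed to 16.8 to 31.4 CPM in vehicle and 12.0 to 13.3 CPM in β-NMN hearts, and macrophage markers to 142 to 171 and 98.8 to 139 CPM. All 4 tested neutrophil markers and 3 of 5 macrophage markers (Cd68, Mrc1 and Cd14) lay wholly lower in β-NMN hearts, and Ly6g was at 0.204 CPM or less in each heart. The macrophage marker Adgre1 tended the other way, at 17.9 to 41.5 CPM in vehicle and 30.5 to 63.9 CPM in β-NMN hearts, and Csf1r overlapped between the groups. The part of these cells in the heart levels was not tested.

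**Figure D2:**
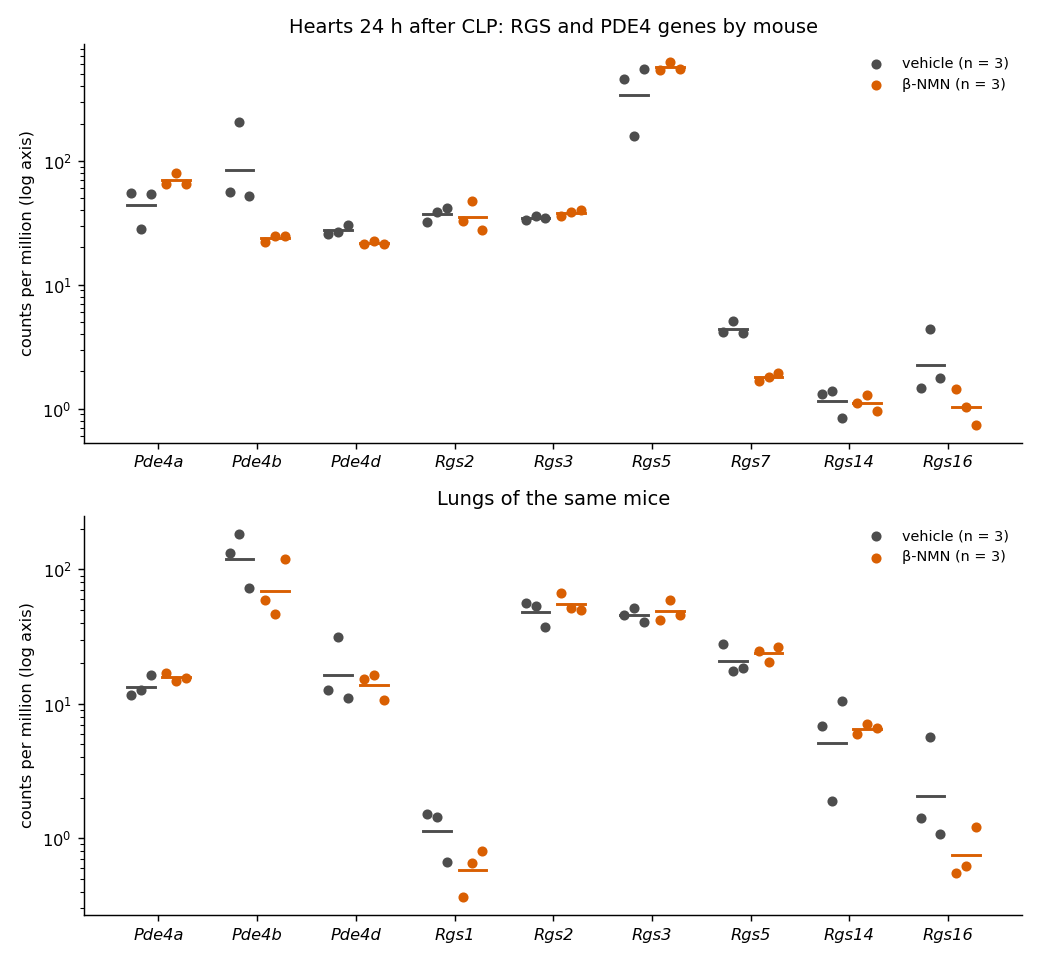
CPM of the members above the low-count filter in each heart (top) and lung (bottom) on log axes, with vehicle in grey and β-NMN in orange (n = 3 mice each); lines are means of the log values. In hearts Pde4b spans 52.3 to 207 CPM in vehicle and 22.0 to 24.9 CPM in β-NMN mice, whereas in lungs the groups of each member overlap.

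In lungs of the same mice no member was called. Across the 17008 genes tested 0% were called by the quasi-likelihood test, with 301 genes at an unadjusted p below 0.05, and DESeq2 called 1 higher and 8 lower. The groups overlapped for all 9 members above the filter, where 3.75% of genes lay wholly below and 4.47% wholly above. An exact permutation test of 3 against 3 lungs cannot go below 0.1, and a missing call in lungs does not show that a member was alike in both groups.

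Pde4b had 132, 182 and 72.5 CPM in vehicle lungs and 59.3, 46.4 and 119 CPM in β-NMN lungs. One β-NMN lung lay among the vehicle lungs, and the log2 fold change was −0.78 (SE 0.47, adjusted p = 0.969, exact permutation p = 0.2), or −0.45 with vehicle replicate 2 left out and −1.27 when β-NMN replicate 3 was left out instead. Rgs16 had 1.42, 5.63 and 1.08 CPM in vehicle and 0.548, 0.619 and 1.21 CPM in β-NMN lungs, where vehicle replicate 2 alone stood high. Its log2 fold change was −1.70 (SE 0.76, adjusted p = 0.969) and −0.63 without that lung. Rgs1 was at 1.52, 1.44 and 0.663 CPM in vehicle and 0.365, 0.657 and 0.807 CPM in β-NMN lungs, from 6 to 45 counts per library, with a log2 fold change of −0.95 (SE 0.54, adjusted p = 0.969). Pde4d had 12.6, 31.6 and 11.1 CPM in vehicle and 15.2, 16.5 and 10.6 CPM in β-NMN lungs. Its log2 fold change of −0.38 (SE 0.45) turned to 0.24 without vehicle replicate 2, the library with the fewest counts (8.915 M).

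The other members differed less. Rgs14 had 6.81, 1.88 and 10.5 CPM against 5.91, 7.04 and 6.64 CPM, a log2 fold change of 0.01 (SE 0.56) that became −0.40 without vehicle replicate 2. Pde4a, Rgs2, Rgs5 and Rgs3 had log2 fold changes of 0.22, 0.19, 0.15 and 0.10, with Rgs5 at 0.035 and Rgs3 at 0.18 without that lung. Without each lung in turn they ranged from 0.13 to 0.41, 0.038 to 0.31, 0.035 to 0.41 and −0.052 to 0.20. Rgs7 did not pass the filter, with 0 to 7 counts. The lung of vehicle replicate 2 also had the lowest summed endothelial markers, 969 CPM against 1986 to 2873 CPM in the other 5 lungs, and the part of its make-up in these values was not tested. With the treatment, cardiomyocyte markers summed to 243 to 406 CPM in vehicle and 70.2 to 237 CPM in β-NMN lungs, with 2 of 5 wholly lower. Of the endothelial markers 2 of 5 lay wholly higher, as did 1 of 7 pericyte and smooth muscle markers, and 1 of 5 macrophage markers lay wholly lower, with sums that overlapped. Neuron markers summed to 1.16 to 23.6 and 29.9 to 61.9 CPM, most of it Stmn2, with the other 5 below 1 CPM in each lung. None of these markers was called, and their part in the lung levels was not tested.

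**Figure D3:**
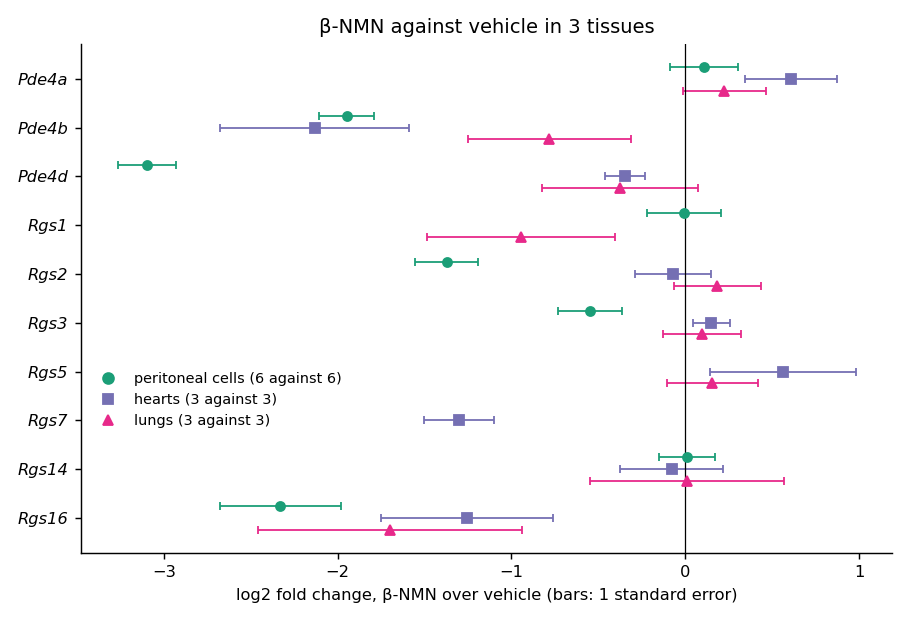
Log2 fold changes of β-NMN over vehicle for each member above the low-count filter, with bars of 1 standard error, in peritoneal cells (circles, 6 against 6 mice), hearts (squares, 3 against 3) and lungs (triangles, 3 against 3). Rgs16 is at −2.33, −1.25 and −1.70 and Pde4b at −1.95, −2.13 and −0.78 in the 3 tissues, whereas Rgs2 is at −1.37 in peritoneal cells and at −0.07 and 0.19 in the organs.

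Side by side, Pde4b, Pde4d and Rgs16 had a log2 fold change below 0 in all 3 tissues and Pde4a one above 0, but only the peritoneal differences of the first 3 were called. The heart value of Pde4b chose the set, and hearts and lungs come from the same mice, so nothing is read from these shared signs. Pde4d in lungs turned to 0.24 without vehicle replicate 2, and Pde4a in peritoneal cells to −0.090 in the libraries above 70000000 counts. Rgs2 and Rgs3, which fell in peritoneal cells, had 38.9 and 34.4 CPM as the median in vehicle hearts and 32.8 and 39.0 CPM in β-NMN hearts. Whether the effect of β-NMN differs between tissues was not tested, since the hearts chose the group and the peritoneal libraries come from another experiment.

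Which of these genes belong to which organ was asked by comparing lungs with hearts over the 12 CLP libraries. Rgs1 had passed the low-count filter in lungs alone and Rgs7 in hearts alone, and the heart levels of Pde4b and Rgs7 chose the set, so that these 3 genes are described without a test. Of the other 7 members 1 was higher and 3 were lower in lungs. Across 18318 genes 35.9% were higher and 28.9% lower (64.8% called in all), and the median log2 difference was 0.14. The log2 differences come from one fit over both organs, whereas the CPM beside them are scaled within each organ and show only the spread there. Rgs5 was lower in lungs, at 158 to 627 CPM in hearts and 17.6 to 28.0 CPM in lungs (log2 difference −5.06, SE 0.32, adjusted p = 1.05e-07). Rgs7 had 1.68 to 5.10 CPM (45 to 271 counts) in hearts, values that took part in choosing the set, and at most 0.290 CPM (0 to 7 counts) in lungs. Pde4a had 28.0 to 80.0 CPM in hearts and 11.6 to 16.9 CPM in lungs (−2.63, SE 0.20, adjusted p = 3.79e-07). Pde4d had 21.2 to 30.6 CPM in hearts and 10.6 to 31.6 CPM in lungs (−1.31, SE 0.23, adjusted p = 0.000343), with the lung of vehicle replicate 2 the highest lung.

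In lungs, Rgs14 was higher (1.83, SE 0.36, adjusted p = 0.000804), with 1.88 to 10.5 CPM against 0.844 to 1.39 CPM in hearts. Rgs1 had 0.365 to 1.52 CPM (6 to 45 counts) in lungs and 0.109 to 0.470 CPM (5 to 25 counts) in hearts, which is near the limit of counting. Pde4b had a log2 difference of 0.29, and Rgs2 (−0.17), Rgs3 (−0.29, adjusted p = 0.0527) and Rgs16 (−0.89, adjusted p = 0.109) were not called. With the mouse as a block, since both organs came from one animal, Rgs3 (−0.30, adjusted p = 0.0424) and Rgs16 (−0.95, adjusted p = 0.0321) were called lower in lungs too. Without vehicle mouse 2 both were called as well (−0.41, adjusted p = 0.00679, and −1.14, adjusted p = 0.0041), as was Rgs3 without β-NMN mouse 2 (−0.38, adjusted p = 0.0426), with the DESeq2 size factors (adjusted p = 0.04) and with DESeq2 (adjusted p = 0.0103). The differences of Pde4b and Rgs2 were 0.51 and −0.29 without vehicle mouse 2.

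Counts per kilobase of exon allow genes to be set against each other. In peritoneal vehicle cells the order was Rgs1 (130 to 237 CPM per kb), Pde4b (51.3 to 68.7), Rgs14 (6.32 to 14.1), Rgs2 (6.61 to 13.1), Rgs3 (2.26 to 5.12), Rgs16 (0.876 to 3.95), Pde4d (0.925 to 1.72) and Pde4a (0.165 to 0.322). Rgs1 and Pde4b stood clear of all others, whereas Rgs14 and Rgs2 overlapped, as did Rgs3 and Rgs16 and then Rgs16 and Pde4d. In vehicle hearts Rgs5 led with 34.9 to 121 CPM per kb, ahead of Rgs2 (8.89 to 11.6), Pde4a (3.65 to 7.20) and Pde4b (4.95 to 19.6) in the order of their medians. Pde4b overlapped both others through vehicle replicate 2 at 19.6, and it lay below Pde4a in the other 2 hearts. In vehicle lungs Rgs2 (10.3 to 15.5) and Pde4b (6.86 to 17.3) were highest and overlapped, and Rgs3 (3.79 to 4.73) and Rgs5 (3.88 to 6.16) came next and overlapped as well. The scaling was set within each tissue, so the orders and not the levels can be read across tissues. The exons of Rgs1 span the whole gene in the annotation, which lowers its value per kilobase.

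The 4 PDE4 genes can also be read as shares of one family, with Pde4c, which is no member, included. In peritoneal cells Pde4b made up 96.7 to 98.1% of PDE4 counts per kilobase in vehicle and 95.7 to 98.6% in β-NMN libraries, while the family summed to 52.9 to 70.3 CPM per kb in vehicle and 12.2 to 24.1 CPM per kb in β-NMN cells. The family was thus almost wholly Pde4b in either group, and its summed levels did not overlap. Pde4d held 1.53 to 2.88% in vehicle and 0.427 to 1.29% in β-NMN cells, and there were 29.5 to 56.4 Pde4b counts for each Pde4d count in vehicle against 65.0 to 203 in β-NMN cells. In hearts Pde4a held 43.0, 14.2 and 42.6% in vehicle replicates 1 to 3 and 56.9 to 63.2% in β-NMN mice, and Pde4b held 29.6 to 75.9% and 14.1 to 15.6%. The leading PDE4 gene of a heart was Pde4b in vehicle replicate 2 alone and Pde4a in the other 5. In lungs Pde4b led in all 6 libraries, with 58.2 to 78.4% in vehicle and 47.9 to 71.1% in β-NMN mice.

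**Figure D4:**
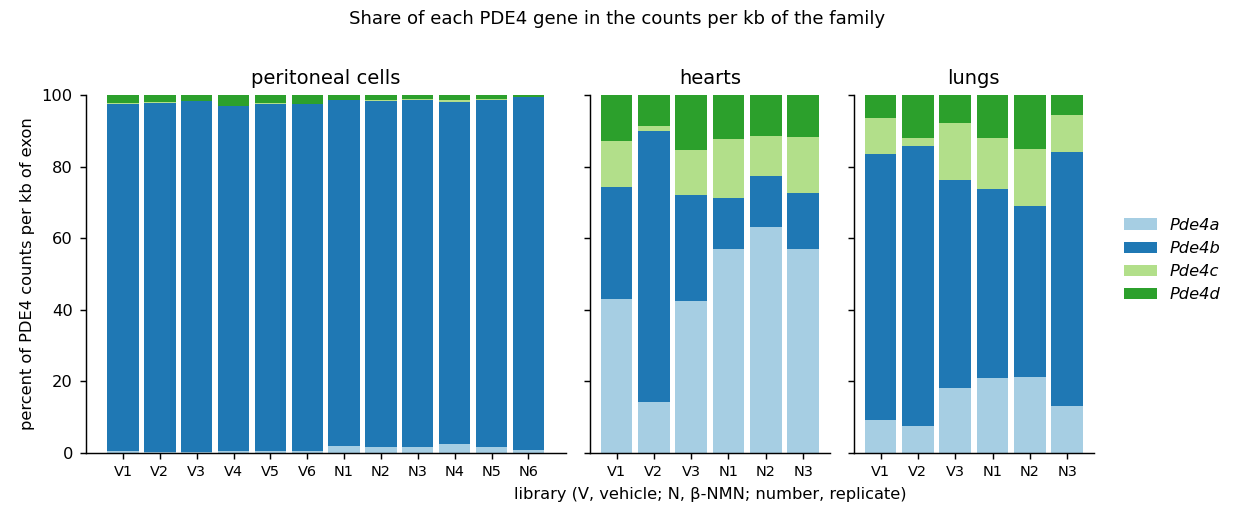
Percent of the PDE4 family's counts per kilobase of exon held by Pde4a, Pde4b, Pde4c and Pde4d in each library (V, vehicle; N, β-NMN) of peritoneal cells, hearts and lungs. Pde4b holds over 95% of the family in each peritoneal library, and in hearts Pde4a holds 56.9 to 63.2% in β-NMN mice and 14.2 to 43.0% in vehicle mice.

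The rest of the pathway was read from lists of genes, which were chosen with earlier results of these data known. In peritoneal cells the lowest medians were those of genes induced through CREB and of receptors coupled to Gs. All 8 genes induced through CREB were called lower, against 27.9% of all genes tested, with a median log2 fold change of −2.02 against −0.02 over all genes. Areg, a growth factor of the EGF family, fell from 4.14 to 8.26 CPM in vehicle to 0.266 to 1.12 CPM (−3.48, SE 0.28, adjusted p = 2.63e-07). The nuclear receptors Nr4a3 and Nr4a1 fell from 186 to 382 CPM to 45.3 to 59.9 CPM (−2.51, SE 0.16, adjusted p = 3.13e-08) and from 308 to 476 CPM to 44.8 to 97.9 CPM (−2.48, SE 0.18, adjusted p = 1.02e-07). Groups of these 3 genes did not overlap. Many of the 8 are also immediate early genes that other signals induce.

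Of 9 receptors that couple to Gs, 7 were tested and 6 were called lower (27.9% of all genes were), with a median of −1.27. Ptger2, a receptor of prostaglandin E2, went from 15.1 to 34.4 CPM down to 4.06 to 5.68 CPM (−2.17, SE 0.18, adjusted p = 3.12e-07). Adora2a, an adenosine receptor, went from 345 to 403 CPM down to 156 to 228 CPM (−1.09, SE 0.09, adjusted p = 4.30e-07). The 1 tested receptor not called was Hrh2, a histamine receptor (−0.18), named after its value was seen.

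The other lists went both ways. Among adenylyl cyclases Adcy6 fell (−2.27, SE 0.18, adjusted p = 2.68e-07) and Adcy7, the main cyclase of many leukocytes, rose from 38.4 to 50.5 CPM to 70.4 to 94.4 CPM (0.97, SE 0.09, adjusted p = 1.16e-06), and 6 of the 8 tested were not called. Among other phosphodiesterases that cut cAMP, Pde8b (from 0.930 to 1.56 CPM to 1.91 to 4.61 CPM) and Pde1b (0.78) rose and Pde7b (−1.81), Pde3a (−1.62) and Pde8a (−0.56) fell, with 5 of 10 not called. Pde1b, which calcium and calmodulin activate, had 64.8 to 123 CPM in vehicle and 139 to 224 CPM in β-NMN cells. Of 7 other RGS genes tested, Rgs10 (0.78) and Rgs18 (0.80), both known from blood cells, rose and Rgs12 (−1.10) and Rgs9 (−1.10) fell. Within the 7 libraries below 70000000 counts, the calls of Rgs10 (0.36, adjusted p = 0.13), Rgs18 (0.77, adjusted p = 0.106), Pde8a (−0.45, adjusted p = 0.0553) and Pde3a (−0.85, adjusted p = 0.453) were lost, while in the 5 deeper libraries Rgs10 was at 1.47 and Pde3a at −2.95.

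Among 12 alpha subunits Gna15 (0.89) and Gnal (0.79) rose and Gnai3 (−0.36) fell, and 9 were not called. Of 8 cAMP effectors, the kinase subunits Prkacb (0.42) and Prkar1b (0.88) rose and Prkar2b (−1.32) and Prkar1a (−0.54) fell. Of 7 receptor kinases and arrestins, Grk3 rose from 22.1 to 32.9 CPM to 72.2 to 103 CPM (1.66, SE 0.12, adjusted p = 8.94e-08), and Grk2 (−0.40) and Grk5 (−0.30) fell. Within the shallower libraries the calls of Prkar1b (0.67), Grk2 (−0.32) and Grk5 (−0.34) were lost, and within the deeper ones those of Gnai3 (−0.24), Prkar1a (−0.38), Grk2 (−0.32) and Grk5 (−0.21), with adjusted p of 0.0579 to 0.37. Gnai3 was not called without the low-count filter (adjusted p = 0.0527), nor was Grk5 with the DESeq2 size factors, with DESeq2 or without the filter (adjusted p = 0.075, 0.0703 and 0.197). The call of Grk5 (adjusted p = 0.0459) was lost in 10 and that of Pde3a (adjusted p = 0.0335) in 8 of the 12 leave-one-out fits.

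**Figure D5:**
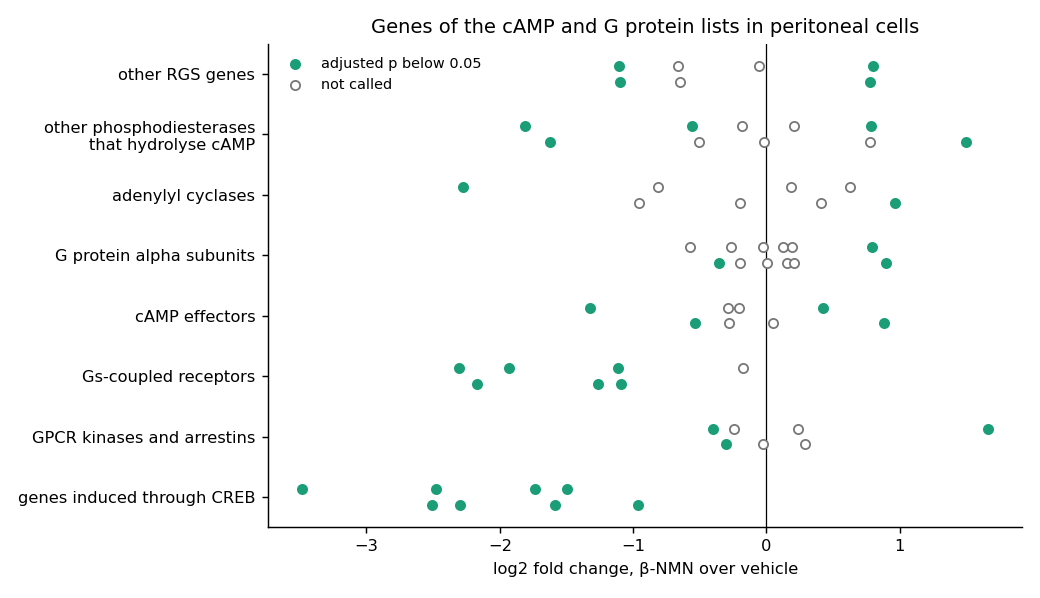
Log2 fold changes of β-NMN over vehicle in peritoneal cells for the tested genes of 8 lists, with filled circles for an adjusted p below 0.05 and open circles for genes not called. All 8 genes induced through CREB are called and lie to the left, all 7 tested Gs-coupled receptors lie to the left with 6 of them called, and the other lists hold called genes on both sides of 0.

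In hearts and lungs no gene of these lists was called by the quasi-likelihood test. The smallest p values of the list of CREB-induced genes in hearts belonged to Nr4a3, with 4.39 to 7.00 CPM in vehicle and 2.36 to 3.42 CPM in β-NMN hearts (−1.03, adjusted p = 0.435), and Fos, with 9.25 to 19.8 against 2.88 to 5.78 CPM (−1.52, adjusted p = 0.435). Adora2b had 1.92 to 4.01 CPM against 1.02 to 1.08 CPM (−1.36, adjusted p = 0.435). DESeq2 gave these 3 genes adjusted p values of 0.0266, 0.0177 and 0.0334. The other heart genes named by the smallest p of their list had adjusted p of 0.435 to 0.461. They were Rgs6 (−0.68) and Rgs19 (−0.53), Pde2a (−0.83) and Pde7a (1.09), Adcy1 (−2.75) and Adcy8 (2.02), Gnai3 (−0.66) and Gna12 (0.37), Rapgef3 (0.35) and Rapgef4 (0.41), Ptger2 (−0.87), Arrb1 (−0.49) and Grk6 (−0.39). In lungs Nr4a1 had 27.0 to 33.0 CPM against 15.4 to 22.9 CPM (−0.66, adjusted p = 0.969). All named lung genes had an adjusted p of 0.969. Prkar2a (−1.25) and Rapgef4 (−1.68) had 682 and 207 CPM in vehicle replicate 2 and at most 161 and 36.1 CPM in the other 5 lungs, and Rgs17 (−2.17) ranged from 1.04 to 13.0 CPM in vehicle and from 0.697 to 2.01 CPM in β-NMN lungs. The rest were Rgs10 (0.38), Pde1a (0.42), Pde8b (0.38), Adcy1 (1.11), Adcy2 (0.69), Gnaz (−0.68), Gnas (−0.54), Adora2a (−0.71), Ptger4 (−0.66), Grk2 (−0.33), Grk4 (−0.49) and Sik1 (−0.45). Without the vehicle replicate 2 libraries, these values were nearer to 0 by over 1.5 times for 7 of the heart genes, with Adcy1 at −1.29 and Rgs6 at −0.31, and for 7 of the lung genes, with Rgs17 at −0.48 and Ptger4 at −0.14, and 3 lung genes (Gnaz, Prkar2a and Rapgef4) changed sign. The list medians lay between −0.41 and 0.18 in hearts and between −0.32 and 0.46 in lungs.

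Finally, the genes whose levels followed a member most closely were sought over all 24 libraries after the mean of each group was taken off, among genes whose log2 CPM averaged 1 or more in every tissue. For Pde4b these were Rab20 (Pearson r = 0.88), Uba2 (0.87) and Birc3 (0.86), and without both libraries of vehicle mouse 2 they were at 0.81, 0.65 and 0.68. For Pde4d they were Ebf1 (0.89), Snx29 (0.87) and Fam199x (0.86), at 0.77, 0.69 and 0.68 without that mouse. For Rgs14 they were Nckap1l (0.92), Lmo2 (0.91) and Zyx (0.91), at 0.81, 0.71 and 0.81. For Rgs16 they were Llph (0.89), Dcn (0.86) and Odc1 (0.85), at 0.79, 0.80 and 0.75. For Rgs2, Nup62, Tbpl1 and Ptdss1 (all 0.79) stayed at 0.81 to 0.83, and for Rgs3, Extl2 (0.81), Brf2 and S1pr1 (both 0.78) stayed at 0.78 to 0.82. Pde4a had the lowest, with Zfhx2 (0.78), Pigl (0.76) and Agap2 (0.74). Without that mouse the 3 closest genes were all others for Pde4d, Rgs14 and Rgs16, and 1 of the 3 named was still among the closest for Pde4a (Pigl), Pde4b (Rab20), Rgs2 (Tbpl1) and Rgs3 (Extl2). These are the highest of about 8667 values for each member and share libraries, depth and mice, so they are descriptions only.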

How the data were processed

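RNA was measured by poly(A) sequencing in 12 peritoneal, 6 heart and 6 lung samples. As the methods and labels state, the authors mapped the reads with STAR 2.7.3a to mm10 (the paper's methods name another STAR version) and counted them per gene with featureCounts 2.0.0, and the deposited values are raw counts per symbol, without normalization. Annotation and strandedness of the counting were not given in the sources used here, and members that overlap another gene (Pde4d, Rgs3, Rgs7 and Rgs16) may share reads with it. Of 54658 symbols 54106 were found in GENCODE M21 (GRCm38), from which positions and exon lengths come.

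Separate fits were made for the 3 tissues with edgeR 4.0.16 (R 4.3.3), using filterByExpr, TMM, estimateDisp and the older form of the quasi-likelihood F-test. P values were adjusted by Benjamini-Hochberg over the genes tested in a tissue, and those below 0.05 were called. A prior count of 2 entered log2 CPM. Members were also compared by an exact permutation test, and lungs with hearts by a contrast of group means over 12 libraries. Within a tissue each library is a mouse, and p values measure the spread between mice. Each CLP mouse gave both a heart and a lung library, and the main fit of lungs against hearts had no term for the mouse. Its p values thus treat the paired libraries of a mouse as independent.

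The members, lists and tests were chosen with earlier results of these data known. All 10 members were named, and from each list up to 3 called genes in each direction with the smallest p, or the 2 with the smallest p where none was called. The rule also took a gene that is not reported here. The genes most like a member were the 3 with the highest Pearson r. Alternatives were the size factors and the test of DESeq2 1.42.0, no low-count filter, the newer quasi-likelihood form, limma-voom (limma 3.58.1) with quality weights, the replicate number or mouse as a block, leaving out each library, and, chosen after seeing the data, the depth of the peritoneal libraries. Tests were checked on simulated counts. No libraries were alike within sampling noise: the smallest chi-square per degree of freedom between replicates was 22.4. No column without a sample was used.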

Additional observations from a re-analysis of the deposited data

Results flagged for a closer look

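In each group of 6 peritoneal libraries, the distance of the highest or lowest library from its neighbour was set against the range of the group for each of the 8 tested members. Of the 16 groups examined 2 stood out, where chance gives about 5% of groups. Rgs1 in β-NMN replicate 6 had 2085 CPM, against 884 to 1206 CPM in the other 5 libraries of its group. The same library had the highest Pde4b (251 CPM) and Rgs2 (16.1 CPM) and the lowest Pde4d (1.23 CPM) of the β-NMN group. Rgs3 in β-NMN replicate 5 had 32.7 CPM, against 21.1 to 24.3 CPM in the other 5. Without these libraries the log2 fold changes were −0.22 for Rgs1 and −0.62 for Rgs3, the latter with an adjusted p of 0.0119 by edgeR's quasi-likelihood test.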

How the results depend on the processing

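Counts of called members within the tissues kept within 1.5 times of their value under each alternative. Between the organs, 3 of the 7 members given with a test were lower in lungs, 3 to 5 without each mouse in turn and 5 with the mouse as a block, and 1 was higher in each fit. Over all 10 members, whose count includes genes described without a test, 1 to 2 were higher without each mouse. The 4 clear peritoneal falls stayed called throughout. Signs of values that were not called turned: Rgs1 in peritoneal cells to 0.020 with the DESeq2 size factors, 0.020 without the low-count filter, 0.020 with DESeq2, 0.062 above 70000000 counts, and between −0.22 and 0.15 without each library. Rgs14 there turned to −0.046 with limma-voom and −0.033 below that depth (−0.057 to 0.17 without each library), and Pde4a to −0.090 above it. In lungs Rgs14 turned to −0.0034, −0.0062, −0.0038 and −0.20 with the size factors, no filter, DESeq2 and limma-voom, and Rapgef4 to 0.11 with limma-voom. Without each lung the ranges were −0.61 to 0.24 (Pde4d), −0.052 to 0.20 (Rgs3), −0.40 to 0.56 (Rgs14), −1.01 to 0.10 (Gnaz), −1.61 to 0.089 (Prkar2a) and −2.14 to 0.58 (Rapgef4). In hearts Rgs2 (−0.07) was 0.024 with limma-voom and ranged from −0.32 to 0.092 without each heart, Rgs14 (−0.08) ranged from −0.26 to 0.041, and Pde4b was −1.25 with limma-voom. The cause of these changes was not tested.

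Replicate numbers showed no steady pairing of vehicle and β-NMN mice in peritoneal cells or lungs. Deviations of samples with the same number correlated at −0.17 to 0.13 in peritoneal cells and −0.52 to 0.30 in lungs. In hearts they correlated at 0.073 to 0.24, and each vehicle heart was closest to its own number. A link between hearts of the same number was not tested further. With the replicate block, 4 members were called lower in peritoneal cells (Rgs3 had an adjusted p of 0.0527) and 0 in lungs. Grk5 also lost its call there, and the block changed no other call of a named gene in these comparisons. Counts limit Rgs5 and Rgs7 in peritoneal cells, Rgs1 in hearts and Rgs7 in lungs, with at most 25 in a library, which were not tested.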
